A study of Mus musculus with 2 samples.

Results

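The regions described here are 1278 DNase I hypersensitive peaks that lie more than 500 kb from every protein-coding transcription start site (TSS) and were found in both libraries of the series. They were chosen by 2 measured or annotated properties. A replicate 1 peak on chromosomes 1 to 19 had to be overlapped over at least 75 bp by a replicate 2 peak, and its midpoint had to lie over 500 kb from any protein-coding TSS of GENCODE release M21. Of 205599 replicate 1 peaks, 83993 (40.9%) had such a match, and the 1278 make up 1.52% of these shared peaks and 2.11% of the shared peaks more than 1 kb from a coding TSS. Since the match was part of the choice, counts of matched peaks are a description and carry no test. The peaks fell into 240 stretches between neighbouring coding TSSs, called deserts here and named by the genes on either side.

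The tissue was the facial prominence of B6NCrl mouse embryos at 11.5 days, healthy and untreated, with both sexes pooled. The series holds 1 group of 2 libraries, biological replicates 1 and 2, from biosamples that the labels list apart under the same donor entry. DNase-seq cuts chromatin with DNase I and maps where the cuts crowd, so that a peak marks accessible DNA. With a single tissue and stage, no comparison between conditions exists, and whole prominences mix mesenchyme, ectoderm, vessels and blood. The labelled tissue was checked at marker promoters, and a shared peak stood at the promoters of 11 of 13 facial mesenchyme genes and 6 of 8 facial ectoderm genes. Over all 20698 coding gene symbols the share was 65.7%. Shared promoter peaks were at 0 of 5 liver genes, 0 of 4 erythroid genes, 0 of 5 macrophage genes, 1 of 5 endothelial genes, 1 of 5 heart genes and 2 of 6 limb genes. In the libraries taken singly, heart genes had a promoter peak at 3 of 5 in replicate 1 and 4 of 5 in replicate 2, and endothelial genes at 1 of 5 and 4 of 5. Over all coding gene symbols the single-library shares were 68.7% in replicate 1 and 72.1% in replicate 2.

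Gene deserts are long stretches without coding genes. Those beside genes for developmental transcription factors often carry enhancers, which act on a promoter over long distances through chromatin loops. CTCF, a zinc finger protein that stops loop extrusion by cohesin, helps to set which enhancer meets which promoter. In facial mesenchyme TWIST1, a basic helix-loop-helix (bHLH) factor, binds E-boxes often beside homeodomain sites. DNase-seq alone does not tell enhancers, CTCF sites and promoters of noncoding RNAs apart.

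The first 4 sequences are shown because the peaks are strong or stand in well-known deserts and hold CATCTG or its complement CAGATG, an E-box of bHLH factors, in capitals. They lie at chr4:71131456-71131605, chr11:111894016-111894165, chr1:76137856-76138005 and chr1:102628176-102628325 of mm10, each printed 5′ to 3′ on the plus strand.
Megf9/Gm11232: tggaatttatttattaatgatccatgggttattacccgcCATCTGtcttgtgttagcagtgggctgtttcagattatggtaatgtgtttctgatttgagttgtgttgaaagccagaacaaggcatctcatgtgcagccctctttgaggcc
Kcnj2/Sox9: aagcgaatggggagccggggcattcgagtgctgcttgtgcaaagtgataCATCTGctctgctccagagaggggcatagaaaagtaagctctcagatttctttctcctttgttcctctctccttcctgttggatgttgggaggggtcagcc
Slc4a3/Epha4: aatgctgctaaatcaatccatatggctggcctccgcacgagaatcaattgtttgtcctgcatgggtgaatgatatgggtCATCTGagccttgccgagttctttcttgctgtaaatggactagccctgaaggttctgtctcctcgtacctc
Cntnap5b/Cdh20: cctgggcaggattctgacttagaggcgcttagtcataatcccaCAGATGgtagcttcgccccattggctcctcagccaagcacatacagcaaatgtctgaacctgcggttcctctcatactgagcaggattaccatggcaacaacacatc
Their GC contents were 42.0%, 52.0%, 48.0% and 51.3% in this order, and each stands in a different desert.

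The next 5 sequences hold a core of the CTCF site, in capitals, and are each among the strongest peaks of their desert or of the whole set. In mm10 they lie at chr13:25932956-25933105, chr3:39814936-39815085, chr8:50293656-50293805, chr14:90433296-90433445 and chr5:46443936-46444085, again on the plus strand.
Nrsn1/Hdgfl1: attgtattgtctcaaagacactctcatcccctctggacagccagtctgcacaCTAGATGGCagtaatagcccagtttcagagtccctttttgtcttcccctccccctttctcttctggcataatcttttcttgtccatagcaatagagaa
Fat4/Intu: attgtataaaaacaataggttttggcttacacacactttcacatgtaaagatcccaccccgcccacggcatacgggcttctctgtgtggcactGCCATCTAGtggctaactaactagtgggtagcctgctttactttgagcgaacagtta
Tenm3/Aga: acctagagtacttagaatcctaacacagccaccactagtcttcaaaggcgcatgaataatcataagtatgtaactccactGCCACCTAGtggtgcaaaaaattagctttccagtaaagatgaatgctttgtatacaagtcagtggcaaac
Pcdh20/Pcdh9: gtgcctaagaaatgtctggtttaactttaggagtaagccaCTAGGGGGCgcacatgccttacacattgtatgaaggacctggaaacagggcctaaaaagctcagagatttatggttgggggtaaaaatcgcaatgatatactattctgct
Lcorl/Slit2: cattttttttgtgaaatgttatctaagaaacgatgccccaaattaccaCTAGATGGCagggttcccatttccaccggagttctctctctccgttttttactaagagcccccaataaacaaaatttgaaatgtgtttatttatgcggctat
In the Fat4/Intu and Tenm3/Aga peaks the core reads on the minus strand, and in the other 3 it reads on the plus strand.

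A last sequence contrasts with these: the peak at chr4:78211976-78212125 has a GC content of 77.3% and no word from the motif list, so that it holds no capitals. Its midpoint lies 95 bp from the TSS of the noncoding RNA B230208B08Rik.
Ptprd/Tyrp1: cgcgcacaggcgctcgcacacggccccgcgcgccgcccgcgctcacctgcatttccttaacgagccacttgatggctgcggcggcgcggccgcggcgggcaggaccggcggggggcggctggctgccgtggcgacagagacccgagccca
Its strength, the deposited signal value of a peak, was 76 in replicate 1 and 101 in replicate 2.

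Deep peaks, as the 1278 are called below, were sparse. Sequence over 500 kb from any coding TSS covered 250.3 Mb, or 10.4% of the 2395.9 Mb of the autosomes, and lay in 328 deserts, runs of N left out. It held 5.11 shared peaks per Mb, while the shared distal peaks outside it stood at 27.7 per Mb, a density 5.42 times as high. Single libraries showed 28.6 peaks per Mb in replicate 1 and 22.2 in replicate 2 in the same sequence. Fewer of these recurred: 17.8% of the 7167 deep replicate 1 peaks had a match against 40.9% of all its peaks, and 22.0% of the 5566 deep replicate 2 peaks against 38.6%.

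Strength was low in the deserts in both libraries. In replicate 1 the deep peaks ranged from 2 to 77 with a median of 20 (quartiles 15 and 29). In replicate 2 they ranged from 6 to 125 with a median of 52 (quartiles 37 and 69). Other shared distal peaks had medians of 28 and 64, and shared promoter peaks, within 1 kb of a coding TSS, of 60 and 101. The 2 libraries' values are not set against each other as levels, because the scale of the value and the depth of the libraries are unknown. Across the 1278 peaks the libraries ranked strength alike, with Pearson r = 0.790 and Spearman rho = 0.801, over points that share their sequence and the choice by a match. At 50 or more in replicate 1 stood 59 deep peaks (4.62%), against 17.3% of other distal and 60% of promoter peaks.

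Strength fell gradually with distance up to the deserts and levelled off within them. From 1 to 10 kb of a coding TSS to 500 to 750 kb, the median strength of shared peaks went from 32 to 21 in replicate 1 and from 65 to 52 in replicate 2, and it was 21 and 55 beyond 1000 kb. The share of replicate 1 peaks with a match went from 42.4% at 1 to 10 kb to 24.1% at 250 to 500 kb, 20.9% at 500 to 750 kb and 13.2% beyond 1000 kb. The limit of 500 kb therefore falls on a slope without a step. Just over it lay peaks in the deserts of Nyap2/Gm9747 (500.25 kb, strengths 25 and 46), Med13l/Tbx3 (500.37 kb, 23 and 46) and Gpc6/Dct (500.39 kb, 22 and 37). Just under it lay peaks between Slc8a1 and Pkdcc (499.33 kb, 35 and 84), Olfm4 and Pcdh17 (499.19 kb, 17 and 39), and Kcnj2 and Sox9 (499.07 kb, 23 and 48).

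**Figure D1:**
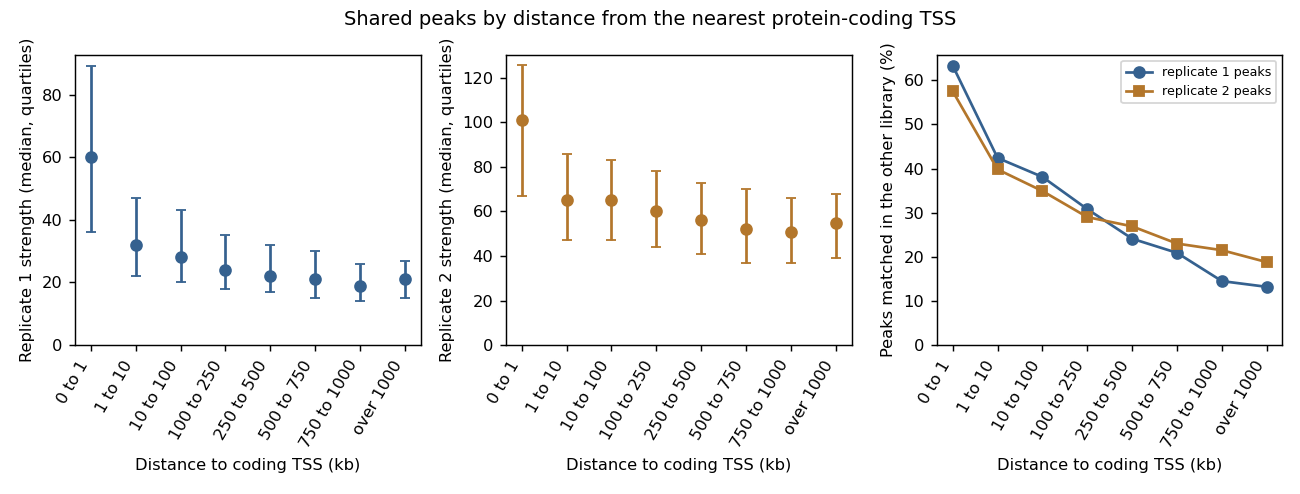
Strength of shared peaks in replicate 1 (left) and replicate 2 (middle), and the share of each library's peaks matched in the other (right), by distance from the nearest protein-coding TSS in kb. Points in the left panels are medians with quartiles, and the 3 classes beyond 500 kb, which hold 841, 250 and 187 shared peaks, have strength medians of 19 to 21 and 51 to 55 while their matched share goes on falling.

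Distances ran from just over the limit to 2195 kb, with a median of 650 kb. Beyond 750 kb lay 437 of the peaks, beyond 1000 kb 187 and beyond 2000 kb 9. The farthest stood between Celf4 and Pik3c3, 2195 kb from a coding TSS, with strengths of 60 and 100. The peak between Cntnap5b, a contactin-associated protein gene, and Cdh20, a cadherin gene, lay 2140 kb away with strengths of 73 and 85; it is the only shared peak in 3.67 Mb of deep sequence, and its E-box is shown among the first sequences. By contrast the peak 2189 kb from Tenm3 had 12 and 29. High strength was thus found at the far end of the range too.

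The peaks were spread unevenly over the deserts. Of 240 occupied deserts, 54 held 1 peak, 96 held 5 or more, 36 held 10 or more and 7 held 20 or more, with a median of 3. The 10 deserts with the most held 230 peaks (18%) on 8.01% of the deep sequence, and the 17 with 16 or more held 348 (27.2%) on 10.4%. Number and length of sequence were loosely related: over all 328 deserts, the number of shared peaks and the length of deep sequence had r = 0.402 and rho = 0.501. Peak numbers per desert in the libraries taken singly had r = 0.689 and rho = 0.782, and in both cases deserts share the genome annotation and long ones offer more sequence.

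**Figure D2:**
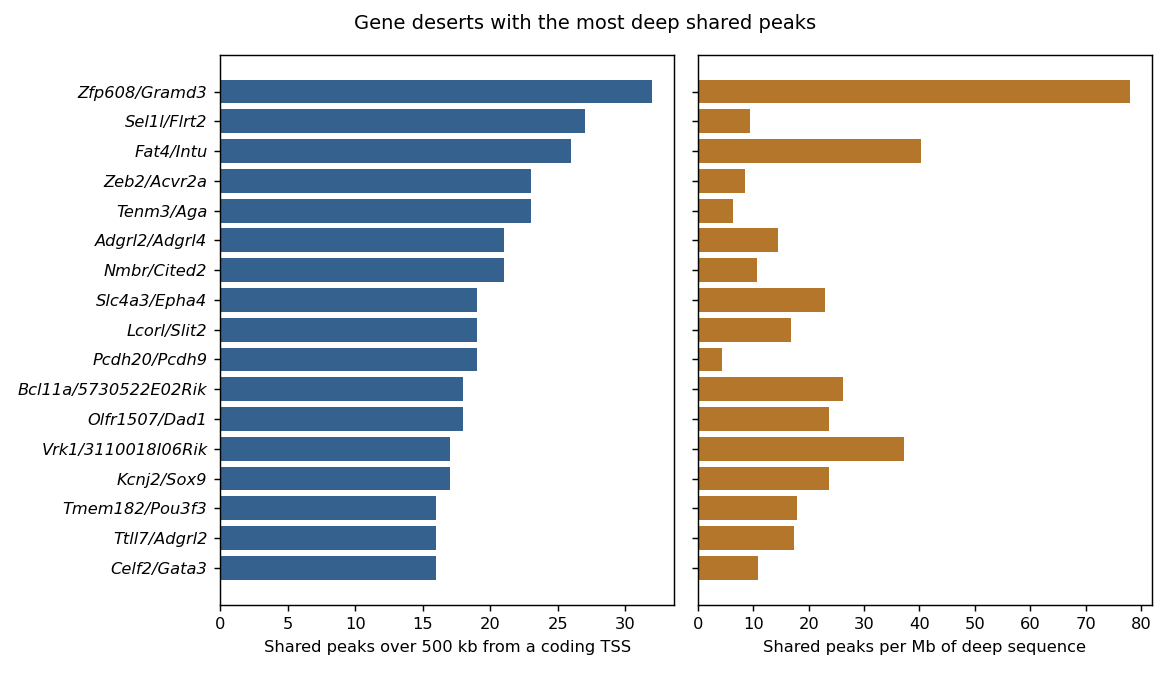
Number of shared peaks over 500 kb from a coding TSS (left) and their number per Mb of deep sequence (right) in the 17 deserts with 16 or more. The Zfp608/Gramd3 desert leads both panels, with 32 peaks and 78.0 per Mb, while Pcdh20/Pcdh9 has 19 peaks at 4.30 per Mb.

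Deserts beside transcription factor genes held more shared peaks per Mb than deserts as a whole. A list of developmental transcription factor genes named at least 1 flank of 45 deserts, which held 297 peaks (23.2%) on 9.04% of the deep sequence, or 13.1 per Mb against 5.11 overall. Without the densest of them, Zfp608/Gramd3, the value was 11.9 per Mb. The single libraries had 64.4 and 49.8 peaks per Mb there, against 28.6 and 22.2 overall. Within deserts of under 1 Mb of deep sequence it was 17.6 per Mb, against 7.75 in deserts of no list, and at 1 to 2 Mb it was 6.35 against 3.50. These are counts without a test, and the list was drawn up with earlier results of these data known.

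The other lists stood lower. Deserts beside signalling genes numbered 30 and held 142 peaks, or 6.68 per Mb. Deserts beside adhesion and synaptic genes numbered 106, took up 48.6% of the deep sequence and held 416 peaks (32.6%), or 3.42 per Mb. Among them 3 deserts with 26 peaks, Kcnj2/Sox9 included, were also counted beside transcription factors. The 150 deserts of none of the lists held 449 peaks, or 5.14 per Mb. The order of these last 2 turned with length: adhesion deserts had 5.15 against 7.75 per Mb below 1 Mb of deep sequence and 2.72 against 3.50 at 1 to 2 Mb, but 3.18 against 1.04 at 2 Mb or more. Strength was close across the lists: medians were 21 and 55 in the 2 libraries beside transcription factors, 19 and 48.5 beside signalling genes, 21 and 54 beside adhesion genes, and 20 and 51 elsewhere. CTCF words were in 5.05% of the peaks beside transcription factors and 11.5% of those beside adhesion genes, while E-box words were in 25.6% and 25.5%.

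Among deserts of transcription factor genes, the one between Zfp608, which encodes a zinc finger protein, and Gramd3 held the most peaks of all, 32 in 0.410 Mb, although it came after Sel1l/Flrt2 in replicate 2 alone (83 against 117 peaks) and after Nudt12/Efna5 in replicate 1 alone (138 against 220). Strength ran from 10 to 60 in replicate 1 (median 22) and from 33 to 125 in replicate 2 (median 57.5). In runs of peaks each within 25 kb of the next, 9 lay in 25.4 kb, 8 in 47.6 kb, 6 in 54.4 kb and 5 in 3.15 kb. The desert as a whole had 78.0 peaks per Mb, and its runs were not tested against an even spread. The strongest, 559.7 kb from Zfp608, had 60 and 122, and a peak 584.2 kb from Gramd3 had 59 and 125. Both were among the 10 strongest of the whole set. A further 3 peaks, with strengths of 60, 42 and 43 in replicate 1 and 81, 86 and 76 in replicate 2, lay in 1 hotspot, a wider enriched region, of 2243 bp in replicate 1 and 2575 bp in replicate 2. The longest stretch without a shared peak was 58.7 kb.

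The desert between Zeb2, a zinc finger repressor needed in neural crest, and the activin receptor gene Acvr2a was longer and sparser, with 23 peaks in 2.70 Mb. Median strengths were 20 and 49. Its strongest peak lay 1070 kb from Zeb2 with 41 and 100, and the next 659.5 kb away with 40 and 89. No peak here held a CTCF word and 3 held the E-box. In the desert from Kcnj2, a potassium channel gene, to Sox9, the regulator of cartilage fate, 17 peaks lay in 0.716 Mb with medians of 24 and 66. Of these, 13 lay nearer to Kcnj2, hence far upstream of Sox9. Deletions and breakpoints in the human counterpart of this desert are known from Pierre Robin sequence, a defect of the lower jaw. The E-box peak printed above stands nearly midway, 827.9 kb from Kcnj2 and 888.13 kb from Sox9, with 48 and 95. The other 2 of the top 3 lay 592.5 and 502.8 kb from Kcnj2, with strengths of 39 and 111 and of 31 and 107.

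The remaining 3 deserts of this kind among the 17 had 16 to 18 peaks. Bcl11a, a zinc finger gene, and 5730522E02Rik flanked 18 peaks in 0.689 Mb, 26.1 per Mb, with medians of 22.5 and 47. The strongest stood at 48 and 104, 664.5 kb from 5730522E02Rik. Pou3f3, a POU-domain gene, and Tmem182 flanked 16 peaks in 0.890 Mb with medians of 22 and 66, and 1 of them, 584.7 kb from Tmem182, reached 63 and 108, among the 10 strongest of the set. Between the RNA-binding protein gene Celf2 and Gata3, another zinc finger gene, 16 peaks stood at 10.8 per Mb with medians of 17.5 and 50. All but 3 of them were nearer Gata3, and the first 484 kb of deep sequence on the side of Celf2 held no shared peak.

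Beside signalling genes, the Slc4a3/Epha4 and Lcorl/Slit2 deserts led with 19 peaks each. Epha4 encodes an ephrin receptor, and the next gene beyond it, 819 kb on, is Pax3, a regulator of neural crest. The Epha4 desert held its peaks in 0.828 Mb at 22.9 per Mb, with medians of 18 and 42 and a strongest peak of 23 and 84. That peak was the one printed with the E-box; in replicate 1 its value lies near the set's median, and in replicate 2 it lies well above. Slit2 encodes a secreted guidance cue read by Robo receptors. Its desert had 16.9 peaks per Mb over 1.13 Mb, with medians of 17 and 39, and its strongest peak, the CTCF core printed above, had 39 and 65.

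Several deserts lay beside genes whose proteins bind each other at cell contacts: teneurins (Tenm3), latrophilins (Adgrl2) and FLRT proteins (Flrt2). Between Sel1l and Flrt2 lay 27 peaks in 2.84 Mb, 9.50 per Mb, with medians of 21 and 62. The strongest, 1439 kb from Flrt2, had 44 and 108, and 601 kb near Sel1l held no shared peak. Between Tenm3 and Aga lay 23 peaks in 3.67 Mb, and all 23 were nearer Tenm3. Beyond the last of them, at 2189 kb, 1980 kb of deep sequence held no shared peak and only 5 replicate 1 and 4 replicate 2 peaks. The Tenm3 desert was thus one-sided in each library as well as in the match. Adgrl2 had deserts on both flanks: 21 peaks at 14.5 per Mb on the side of Adgrl4 (medians 22 and 56) and 16 at 17.3 per Mb on the side of Ttll7 (medians 20 and 58).

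**Figure D3:**
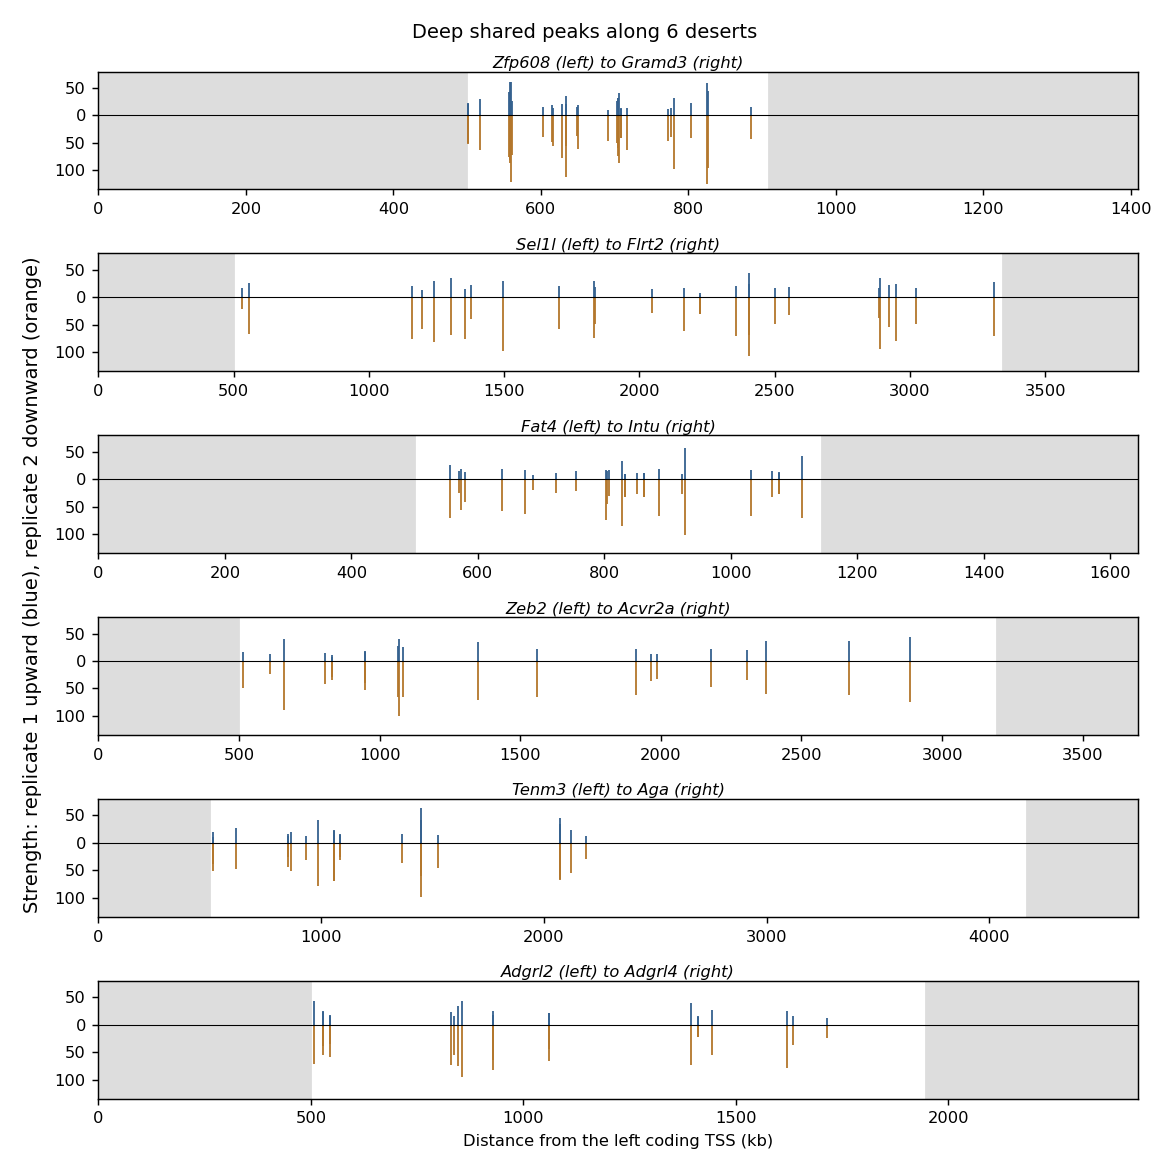
Position and strength of each shared peak in the 6 deserts with the most, by distance from the left flanking coding TSS in kb. Blue lines upward give replicate 1 strength, orange lines downward give replicate 2 strength, and grey marks sequence within 500 kb of a coding TSS. Peaks crowd in the Zfp608/Gramd3 panel and stop at 2189 kb in the Tenm3/Aga panel.

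The Pcdh20/Pcdh9 desert, between non-clustered protocadherin genes, was the longest of the 17 with 16 or more peaks at 4.41 Mb and the thinnest of these at 4.30 per Mb. Of its 19 peaks 9 lay inside the Pcdh9 gene body, and a stretch of 2330 kb held none. Its strongest peak, 1962 kb from Pcdh20, carried a CTCF core with strengths of 48 and 70. The Cdh11/Cdh5 desert held 15 peaks in only 0.316 Mb, 47.5 per Mb, between the genes for mesenchymal cadherin-11 and endothelial VE-cadherin. Its peak 623.6 kb from Cdh11 reached 69 and 117, the second rank of the whole set, and 7 peaks stood in 41.3 kb. Match rates differed between these deserts: 51.7% of replicate 1 peaks beside Cdh11 were matched and 14.7% beside Pcdh9.

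Some of the fullest deserts had no flank in any list. Between Fat4, an atypical cadherin gene of tissue polarity that the lists did not hold, and Intu, a planar polarity gene needed for cilia, lay 26 peaks in 0.644 Mb, 40.4 per Mb. They were mostly weak, with medians of 15 and 33, and came from 159 replicate 1 and only 54 replicate 2 peaks. The run with the most peaks of the set lay here, 10 in 85.0 kb with strengths of 10 to 33 and 27 to 86. With overlapping peaks merged it had 8 sites, as did the Zfp608/Gramd3 runs of 9 and 8 peaks. The strongest was the CTCF peak printed above, with 56 and 102, followed by peaks with 33 and 86 and with 43 and 70. In the Nmbr/Cited2 desert, 19 of 21 peaks were nearer Cited2, a coactivator gene, than Nmbr, a neuropeptide receptor gene, and 1240 kb between held none. That empty stretch still had 26 replicate 1 and 24 replicate 2 peaks without a match.

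The other 2 of the 5 densest deserts with 10 or more peaks were those of Mki67/Mgmt and Vrk1/3110018I06Rik. Mki67, the gene of the proliferation marker Ki-67, and Mgmt, a DNA repair gene, flanked 12 peaks in 0.178 Mb, 67.3 per Mb, and the strongest had 56 and 112. The Vrk1/3110018I06Rik desert, beside a kinase gene, held 17 peaks at 37.1 per Mb with medians of 20 and 48 and a strongest peak of 53 and 102. The next coding gene past 3110018I06Rik, 515 kb on, is Bcl11b, a zinc finger gene of skin, teeth and T cells. In its longest stretch without a shared peak, 94.2 kb, replicate 1 had 54 peaks and replicate 2 had 5. The libraries thus differed there in number of peaks, and none of them met the overlap.

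Many of the peaks had another of the set nearby. Other distal peaks stood more densely (27.7 against 5.11 per Mb), and their shares with a neighbour are not given here. Another shared deep peak lay within 25 kb of 694 peaks (54.3%) and within 1 kb of 316 (24.7%), with a median spacing to the nearest of 19.8 kb. Part of this is overlap: 153 peaks (12.0%) overlapped another of the set, against 6.09% of all shared peaks, and merging them left 1201 sites. Runs of 5 or more peaks, each within 25 kb of the next, numbered 23 and held 137 peaks. A neighbour within 25 kb was found for 68.0% of peaks beside transcription factor genes, 50.7% beside signalling genes, 43.0% beside adhesion genes and 56.3% in deserts of no list. Densities there were 13.1, 6.68, 3.42 and 5.14 per Mb, and the part of density in these shares was not tested. The 5 peaks with the most neighbours all stood in 1 run of the Zfp608/Gramd3 desert, with replicate 1 strengths of 41, 31, 31, 26 and 19. In the Myc/Gsdmc desert, beside the growth regulator gene Myc, all 11 peaks lay nearer to Gsdmc than to Myc. Of these, 5 stood in 4.29 kb at 4 separate sites, with strengths of 17 to 25 and 43 to 93.

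Not all of the stretches were deserts in every sense. Only 7 of the 1278 peaks were over 500 kb from the TSS of any GENCODE gene once noncoding genes were counted, and the median distance to a noncoding TSS was 45.2 kb. Noncoding here means every gene that GENCODE does not type as protein-coding. Within 1 kb of such a TSS lay 72 peaks (5.63%) at 52 genes, and 11 of these peaks stood at T-cell receptor segments. The like share of other distal peaks is not given here. The 72 peaks had medians of 23.5 and 52 against 20 and 52 for the rest. The strongest was the first sequence above, 397 bp from the TSS of Gm11228, with 77 and 117, the top rank of the set. Others included Macrod2os2 (52 and 115 at its strongest peak), Gm31378 (50 and 107) and Rmst, a noncoding RNA known from neural differentiation (39 and 68). Of the 34 peaks with a GC content of 60% or more, 17 lay within 1 kb of a noncoding TSS. Most of these 17 stood in only 2 stretches of chromosome 12, Ywhaq/Gm10330 and 5730507C01Rik/Gm21863. There 8 and 2 peaks had a near-identical copy elsewhere in the set. Coding gene bodies held 96 peaks (7.51%) in 27 very long genes, led by Macrod2 with 12 (medians 27 and 63.5), Pcdh9 with 9 (20 and 45) and Wwox with 8 (34 and 72). The distance limit itself leaves only long genes, and the share of deep sequence inside gene bodies is not given here.

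The clearest departure from the name was the stretch between Olfr1507 and Dad1, where 18 peaks lay among 78 gene segments of the T-cell receptor alpha and delta chains. These segments are joined by recombination in thymocytes, and GENCODE does not type them as protein-coding. All 18 peaks lay within 10 kb of a segment TSS and 11 within 1 kb. Medians were 18.5 and 30, 7 peaks held a CTCF word, and 8 had a near-identical copy elsewhere in the set. Of its 32 replicate 1 peaks 56.3% were matched. The Ywhaq/Gm10330 stretch was another: 8 of its 14 peaks had near-identical copies, its median GC content was 69.0%, and 9 lay within 1 kb of a noncoding TSS. In all, 20 peaks (1.56%) had such a copy, and the part of read placement was not tested.

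The sequence of deep peaks was less GC-rich than that of other shared peaks and richer than its surroundings. The median GC content was 44.7%, against 50.7% in other distal peaks, 64.7% in promoter peaks and 38.7% in 2556 windows of the same length 2 kb to either side. The observed to expected ratio of CpG had a median of 0.189, against 0.275 in other distal and 0.769 in promoter peaks. Soft-masked repeats made up over 50% of the sequence in 3.44% of deep peaks and in 20.6% of the offset windows. Deep peaks thus lay mostly outside annotated repeats, at a share close to the 4.33% of other distal peaks.

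The E-box word was the most frequent of 11 motifs searched. CATCTG, on either strand, stood in 328 deep peaks (25.7%, exact 95% interval 23.3 to 28.2), in 11.1% of the offset windows, 18.4% of other distal peaks and 6.10% of promoter peaks. All shared peaks had it in 15.1%. By distance its share went from 14.6% at 1 to 10 kb to 19.1% at 10 to 100 kb, 23.6% at 250 to 500 kb and 25.1% at 500 to 750 kb, so that deep peaks lie at the upper end of a gradient. Median strengths were 20 and 55.5 with the word and 21 and 51 without. The E-box together with the homeodomain word TAATTA was in 1.96% of deep peaks, 0.548% of offset windows and 0.746% of other distal peaks. TAATTA, with or without the E-box, was in 6.49%, 5.83% and 3.74% of these. Whether the 2 words met more often than their separate shares would give was not tested. GC content moves with distance too, and its part in these shares was not tested; the intervals cover counting error only and treat peaks as independent.

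CTCF words went the other way against other distal peaks pooled over distance. CNAGGGGGC, CNAGATGGC, CNAGAGGGC or CNAGGTGGC, on either strand, stood in 112 deep peaks (8.76%, interval 7.27 to 10.4), 1.02% of offset windows, 13.8% of other distal peaks and 7.51% of promoter peaks. The share was 14.0% at 1 to 10 kb and 15.2% at 10 to 100 kb. It was 10.3% at 100 to 250 kb and 8.88% at 250 to 500 kb. Within the deserts it was 9.04% at 500 to 750 kb, 6.4% at 750 to 1000 kb and 10.7% beyond. The share of deep peaks was thus close to that at 250 to 500 kb, and the lower share was not particular to the deserts. Deep peaks with such a word were stronger, with medians of 29.5 and 62 against 20 and 51 without. Of the 128 peaks highest by mean rank over both libraries 14.1% held it, and of the lower 639 peaks 5.32%. The word CNAGATGGC contains CAGATG when N is C, and in 9 peaks this was the only E-box match.

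**Figure D4:**
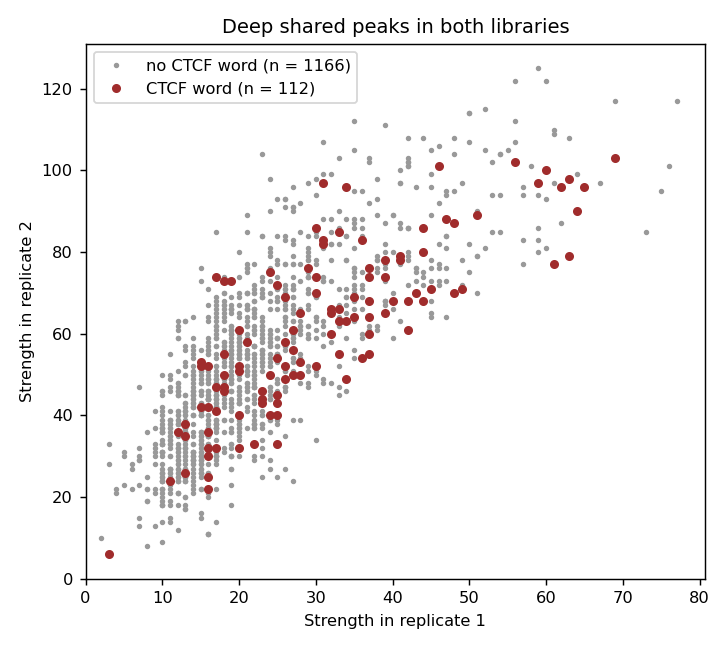
Strength in replicate 1 (horizontal) and replicate 2 (vertical) of the 1278 peaks, with the 112 that hold a CTCF word in red and the other 1166 in grey. Red points lie toward higher replicate 1 values, with a median of 29.5 against 20.

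Most other words were within a few percentage points of the offset windows. AP-2 (GCCNNNGGC) stood in 3.68% of deep peaks against 1.02% of windows, 6.23% of other distal peaks and 16.5% of promoter peaks. NFI words (TTGGCA) were in 10.7% against 7.24% of windows and 8.38% of other distal peaks. Nuclear receptor words (AGGTCA) were in 9.78% against 6.89% and 8.93%. The homeodomain word was in 6.49% against 5.83% and 3.74%, AP-1 (TGANTCA) in 5.95% against 4.97% and 4.40%, and TEAD (GGAATG) in 9.55% against 8.65% and 10.6%. The word AGATAA of GATA factors was less frequent in peaks than in windows, 7.51% against 10.6%. ACAATG, a word of SOX factors, was in 9.70% against 11.6%, with intervals that overlap (8.13 to 11.5 and 10.4 to 12.9). Forkhead words (TGTTTAC) were in 2.66% against 2.58%. The windows were poorer in GC than the peaks (medians of 38.7% and 44.7%) and richer in repeats. The part of this in the shares of these words, the E-box and CTCF was not tested. A word is a match of letters only and no evidence that the factor is bound.

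**Figure D5:**
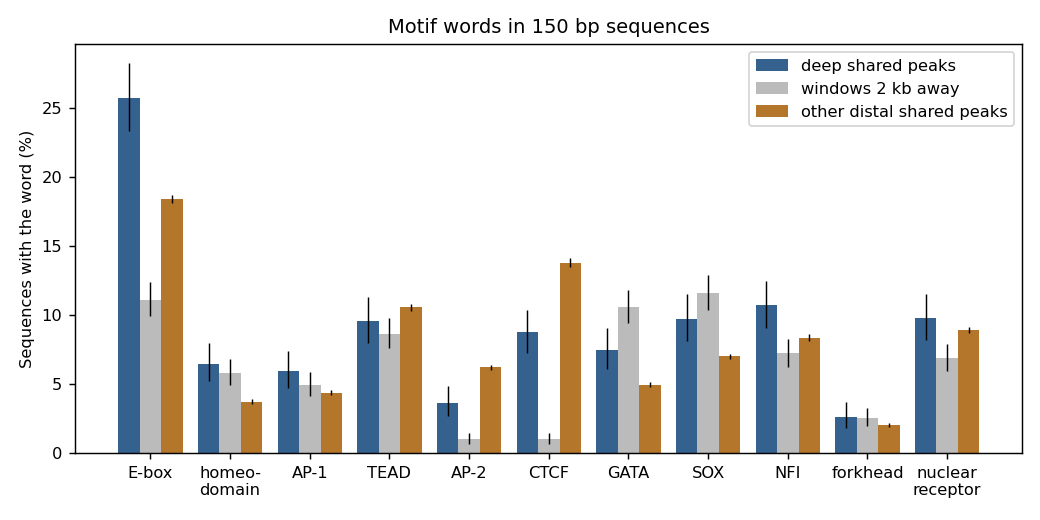
Share of 150 bp sequences that hold each motif word, in percent, for deep shared peaks (blue), windows 2 kb to either side (grey) and other distal shared peaks (orange), with exact 95% intervals. The E-box, CTCF and AP-2 shares of deep peaks (25.7%, 8.76% and 3.68%) are over 2 times those of the windows (11.1%, 1.02% and 1.02%). The windows are poorer in GC, and the part of this in the shares was not tested.

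The strongest peaks were scattered over deserts of different kinds. By mean rank over both libraries the first 10 were peaks of Megf9/Gm11232 (77 and 117), Cdh11/Cdh5 (69 and 117), Zfp608/Gramd3 (60 and 122, and 59 and 125), Tmem182/Pou3f3 (63 and 108), Nyap2/Gm9747 (61 and 110), Adamts16/Irx1 (61 and 109), Nrsn1/Hdgfl1 (69 and 103), Lmo7/Kctd12 (56 and 122) and Ptprd/Tyrp1 (76 and 101). Irx1 is an Iroquois homeobox gene of patterning, and the peak beside it lay 500.8 kb away. The Nrsn1/Hdgfl1 peak is the first of the CTCF sequences and the Ptprd/Tyrp1 peak is the GC-rich one. Only the Zfp608/Gramd3 desert gave more than 1 of the 10.

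The 88 deserts without a shared peak were mostly short, with a median of 0.153 Mb of deep sequence against 0.658 Mb in occupied ones, but some were long. Of 85 deserts with 1 Mb or more of deep sequence, 8 held no shared peak, and the median was 2.47 per Mb with a highest value of 16.9 in Lcorl/Slit2. The longest without any were Snx16/Ralyl (2.03 Mb), Lrfn5/Fscb (1.95 Mb), 1700015G11Rik/Luzp2 (1.82 Mb), Adam6a/Zfp386 and Lingo2/1700009N14Rik (1.5 Mb each). Replicate 1 had 0, 0, 1, 0 and 0 peaks in them and replicate 2 had 12, 11, 10, 1 and 4. Replicate 1 thus had almost no peak in these stretches, while replicate 2 had some that were unmatched. Lrfn5, Lingo2 and Luzp2 are known from the nervous system, and the Adam6a stretch holds 117 segments of the immunoglobulin heavy chain. A different case was the Nudt12/Efna5 desert, with 220 replicate 1 and 70 replicate 2 peaks of which 10 were shared, a match of 4.55%.

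Median strength varied between deserts, in a like order in both libraries. Over the 96 deserts with 5 or more peaks, the median ran from 10.5 to 35 in replicate 1 and from 24 to 86 in replicate 2, with rho = 0.771 and r = 0.722 between the libraries. Deserts share the matched peaks between the libraries, so that this is a description of rank. High in replicate 1 were Tenm2/Mat2b (6 peaks, medians 35 and 67.5), Cdh18/Basp1 (5 peaks, 35 and 64) and Dsel/Cntnap5a (8 peaks, 34 and 64.5). Level with the last was Wwox/Maf (8 peaks, 34 and 72), a desert of the transcription factor list. Low were Otol1/Sis (8 peaks, 10.5 and 36), Hace1/Grik2 (5 peaks, 12 and 25) and Wac/Fzd8 (5 peaks, 12 and 44). Single peaks overlapped: replicate 1 strength ran from 12 to 57 in Dsel/Cntnap5a and from 10 to 25 in Otol1/Sis. Whether deserts differ more than medians of so few peaks would was not tested. The highest replicate 2 median, 86, was in Adamts5/N6amt1, beside a gene for a matrix protease, with 23.5 in replicate 1.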

How the data were processed

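DNase-seq peaks and hotspots of 2 libraries were used as the authors deposited them, on mm10, per the labels and the accompanying notes. Peaks were called per library and are 150 bp wide. Their deposited strength is a score of unknown scale, a whole number no higher than 150, and the deposited hotspot values are −log10 q, up to 100. Neither depth nor the aligner and caller were stated: not given in the sources used here.

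Peaks were matched by overlap (75 bp or more), and distances were taken from midpoints to TSSs of protein-coding transcripts of protein-coding genes (GENCODE M21, 52063 TSSs of 20722 genes). Sequence came from GRCm38 patch 6, the same build. Density used sequence without runs of N of 1000 bp or more. A near-identical copy had at most 10 edits over the middle 100 bp (edlib 1.3.9.post1). Python 3.11.15, numpy 2.4.6, pandas 2.3.3, scipy 1.17.1 and pysam 0.24.0 were used, and matching and distance code was tested on simulated data. Named were the deserts with the most peaks (15, with ties 17), the 5 densest of those with 10 or more, the 5 longest empty ones, the 10 strongest peaks, the strongest per desert, the 5 with the most neighbours, and the nearest to the limit on either side. Other deserts and peaks named were chosen after their values were seen. The peaks, lists and rules were chosen with earlier results of these data known. No test was run, since there is 1 group and the match is part of the choice.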

Additional observations from a re-analysis of the deposited data

How the results depend on the processing

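The count of peaks, the count of occupied deserts, the share in the 10 fullest, and the median strength and GC content depended on distance and matching. At 250 kb they were 4779 peaks, 669 deserts, 8.81%, 22 and 46.0%, and at 750 kb 437, 98, 33.4%, 20 and 43.3%. An overlap of 1 bp lowered the median strength to 19. An overlap of 90% of the peak gave 372 peaks in 159 deserts, with a median strength of 24 and GC of 45.3%. The 50000 strongest peaks of each library left 196 in 115 deserts, 23.5%, 43.5 and 47.3%. TSSs of all GENCODE genes left 7 in 4 deserts, 100%, 26 and 46.0%. With either library left out and no match required, the counts were 5566 to 7167 peaks in 271 to 303 deserts, with 15.1% to 22.1% in the 10 fullest and GC of 39.3% to 44.0%; without replicate 2 the median replicate 1 strength was 6. The cause of these shifts was not tested beyond the settings themselves.

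Swapping the libraries (1225 peaks), leaving out gene bodies (1182), and 4 settings chosen after seeing the data kept the counts within 1.5 times: GENCODE basic transcripts (1408), merged overlaps (1201), no immune receptor stretches (1259) and no near-identical copies (1258). The Zfp608/Gramd3 desert lost first place at 750 kb (0 peaks, Sel1l/Flrt2 24), with 90% overlap (7, Olfr1507/Dad1 10), with TSSs of all genes (0), without replicate 1 (83, Sel1l/Flrt2 117) and without replicate 2 (138, Nudt12/Efna5 220). Of the 10 fullest deserts, 9 remained with the libraries swapped or gene bodies left out. With an overlap of 1 bp 8 remained, and with basic transcripts 6. All 10 remained with merged overlaps, without immune receptor stretches and without near-identical copies. Fewer remained at 750 kb (5), at 250 kb (4), with the 50000 strongest peaks (4) and with 90% overlap (3). Without replicate 1 it was 6, without replicate 2 it was 5, and with TSSs of all genes it was 0.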
